A study of Capra hircus with 10 samples.

Results

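The 109 miRNA described here were predicted from the reads of goat mammary gland, came from precursors to which the prediction software miRDeep2 had given a score under 10, and had 100 or more raw counts summed over the 10 libraries. They were selected on both measured values from 1804 miRNA in the quantification files, of which 1265 were predicted and 539 carried a miRBase name. Of the predicted miRNA, 915 had a score under 10 at any count, and 73 had a score of 10 or more and at least 100 counts. The 109 came from 105 precursors. The libraries came from lactating Alpine goats at peak lactation, 1 goat per library and mammary tissue taken at slaughter. The 4 Control goats were fed without restriction (0 h of food deprivation), whereas the 6 FD (food-deprived) goats went without food for the 48 h before slaughter. Goats of both groups had received the same hay-based diet before that, and no age was given in the sources used here. The total per library was 4495512 to 9842009 counts. The tissue was whole mammary gland, so that fewer cells of a type and less RNA per cell cannot be told apart.

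A miRNA is a short RNA that guides Argonaute proteins to messenger RNAs, mostly through the seed, bases 2 to 8 from its 5' end. Its precursor folds into a hairpin, which Dicer cuts so that either arm can be kept, the other being the star strand. miRDeep2 scores a candidate hairpin by how well the stacked reads fit this cutting, giving weight to reads of the star strand, to the stability of the fold and to a conserved seed. Low scores are therefore known to collect hairpins with reads on 1 arm only, which can be true miRNA as well as pieces of transfer RNA (tRNA), ribosomal RNA or small nucleolar RNA.

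The sequences fell into 4 groups, described by letters in the mature sequence and by nearness to a named miRNA. The sequences below are given as in the deposited files, 5' to 3' with T for U and the seed in capitals. The first set is shown because its letters are those of tRNA. Every mature tRNA ends in CCA, and TAGCTCA belongs to the conserved D arm of many tRNAs. There were 11 members here, 7 that ended in CCA and 4 that held TAGCTCA, on the given strand.
chr12_17655-3p: cCCGGGTTtcggcacca
chr11_16730-3p: tCCCTGTTcgggcgcca
chr8_12894-3p: tCCCCTGCatctccacca
chr22_29775-3p: aTCAGAGTcacggcacca
chr5_7010-5p: tAGAATCCcactcctgacacca
chr19_27451-5p: gGGGGTATagctcagtggtagagc
chr23_30758-5p: gGGGATGTagctcagtggtaga
scaffold986_36329-3p: aATAGCTCagttggtagag
chr18_24690-5p: aATAGCTCagaatgtcacttctg
The last pair shared the seed ATAGCTC. The letters CCA at the 3' end were found in 10 of the 109 members (9.17%), 3 of them in the miR-2284-like group below, against 1.88% of all 1804 mature sequences. TAGCTCA was found in 4 members (3.67%) and in no other mature sequence of the files. GGTTCGA, letters of the T arm of tRNA, was found in none of the members' mature sequences. These were the only tRNA letters searched, so pieces of tRNA without them could stand in the other groups. Holding them does not make a sequence a piece of tRNA.

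The hairpin of chr23_30758-5p is shown because it held both tRNA letters, once in each arm. It lay at chr23:27661999-27662062 on the plus strand of CHIR_1.0, and the mature arm is in capitals, here with U as in the prediction file.
chr23_30758-5p: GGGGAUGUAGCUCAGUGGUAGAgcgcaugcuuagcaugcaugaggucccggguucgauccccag
UAGCUCA began at base 8 and GGUUCGA at base 51 of these 64 bases. Of all 1070 predicted precursors this was the only one with both (0.0935%). An annotation of CHIR_1.0 was not used here, so that no gene, exon or intron is given for any member.

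The second set is shown because it belongs by its letters to a family that is large in ruminants. miR-2284 and miR-2285 have many copies in the cattle genome. In this group were 34 members, 13 of which held GGTTTTT or AAAAACC. Another 20 held only CTTTTTGG, CCAAAAAG, GAACTTTTT or AAAAAGTTC, letters that were added after the sequences had been seen, and 1 was placed by nearness to a named family member.
chr8_12248-5p: tGAAAAGTtcgttctggttttt
chr27_34538-5p: aAAGTTCAttcaggtttttctg
chr4_5744-5p: gAAAAGTTcgttagggtttttt
chr12_18027-5p: gAAAGGTTcatttgggttttt
bta-miR-2284j: gAAAAGTTcgttcaggtttt
chr4_5744-5p and bta-miR-2284j had the seed AAAAGTT in common, which chr8_12248-5p carried shifted by 1 base. Both sets of letters were less frequent over all mature sequences, with GGTTTTT or AAAAACC in 5.21% and the added letters in 5.82%, against 11.9% and 19.3% of the members. Among the 73 miRNA from precursors with a score of 10 or more the same letters were found in 21.9% and 27.4%.

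The third set is shown because each sequence lay within 2 edits (mismatches, insertions or deletions, ends of the longer sequence left free) of a named miRNA outside that family. There were 16 such members, 5 near miR-378-3p or ppy-miR-378d. Of the pairs below, the named miRNA stands after its neighbour.
chr21_28588-5p: cTGGACTTggggtcagaaggct
miR-378-3p: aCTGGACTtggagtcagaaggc
chr4_5826-5p: tTCACAGTggctaagttga
miR-27b-3p: tTCACAGTggctaagttctgc
chr23_31549-5p: tGAGATGAagcactggctc
miR-143-3p: tGAGATGAagcactgtagctcg
chr17_23903-5p: tCTCTGTCctccaggagctcac
chr25_32792-5p: aCCCTGTCctccaggagctcat
ssc-miR-4334-3p: tCCCTGTCctccaggagctc
chr4_5826-5p had the seed of miR-27b-3p and chr23_31549-5p that of miR-143-3p. In all, 30 of the 109 members, those of the miR-2284 and miR-2285 family and 1 tRNA-like sequence included, lay within 2 edits of a named miRNA. Of these 1 was at 0 edits (C68860199_39120-3p within efu-miR-1842), 9 at 1 edit and 20 at 2 edits, and 7 of the 30 had the seed of that neighbour. Reads of such near copies cannot be assigned with certainty to either. The same holds for the 34 of the 109 members that lay within 1 edit of another predicted miRNA.

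The remaining 48 members held none of the letters that set the groups above. They lay within 2 edits of no named miRNA of the quantification files, the only named ones compared. The following are shown because they were the most abundant or had the smallest p between diets.
chr4_5976-5p: gAACACCGggtgccgtaggctt
scaffold1201_36412-3p: aGGTCCCCagtagctcc
chr17_23603-3p: gCGGCGTCccagtagctc
chrX_39298-5p: tTTTGCAAcatgttcctgaatat
chr19_26739-5p: gAGGGTTTgggtttggtcgtggga
chr9_13534-5p: gTACATGAtgacaactggctc
scaffold1201_36412-3p and chr17_23603-3p ended in overlapping letters, cccagtagctc. For chrX_39298-5p the prediction file gives hsa-miR-450b-5p as an example of a miRBase miRNA with the same seed. Its full sequence was not compared here. chr9_13534-5p held TGATGA, which is the core of the C box by which box C/D small nucleolar RNAs are recognised. These letters were searched after the sequences had been seen, and 3 of the 109 members held them (2.75%), against 0.776% of all mature sequences. Among the named miRNA with TGATGA were miR-200b and miR-136-5p, so that the letters alone do not mark a small nucleolar RNA.

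Short mature sequences were more frequent among the members than among the high-scoring predictions. Of the 109, 25 (22.9%) were 17 to 19 nt long, against 1 of 73 (1.37%) from precursors with a score of 10 or more and 13 of 372 (3.49%) named miRNA with 100 or more counts. The median was 22 nt in all 3 sets, with a range of 17 to 25 nt in the members. Within the members, the tRNA-like group had a median of 18 nt and the miR-2284-like group one of 22 nt. The first base was T in 36, A in 33, G in 21 and C in 19 of the 109. GC content had a median of 47.6% in the members and 33.3% in the high-scoring predictions, and ranged from 34.1% as median of the miR-2284-like group to 55.6% as that of the tRNA-like group. No test was made of these features.

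**Figure D1:**
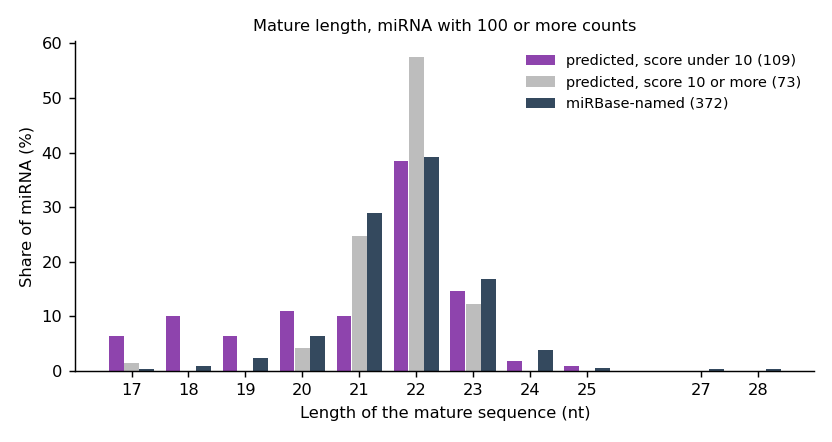
Share of miRNA (percent, y axis) by length of the mature sequence in nt (x axis) for the 109 predicted miRNA with score under 10 (purple), the 73 with score of 10 or more (grey) and the 372 miRBase-named miRNA (dark), each with 100 or more counts. Lengths of 17 to 19 nt held 22.9% of the purple set, 1.37% of the grey and 3.49% of the dark.

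The precursors had the features that their score already reflects, which are given as a description only. The lowest score was 0, the median 2.9 and the highest 5.9. The highest-scoring members were chr11_16141-3p (5.9) and, all at 5.8, chr11_17068-3p, chr20_28040-5p and chr20_28040-3p, and the nearest predictions past the limit with 100 counts were chr4_6064-5p (34.1), chr12_17532-5p (61.4) and chr16_21889-3p (70.8). Nothing with 100 counts lay between, although 48 of the 1070 precursors scored from 6 to 10. Star-strand reads were recorded for 24 of the 105 precursors and for 64 of 64 high-scoring ones, and the fold was called significant by randfold in 72.4% and 93.8%. All 34 members of the miR-2284-like group had a significant fold, and 14 of them came from a precursor with star reads. None of the 11 tRNA-like members had star reads, and for 6 of them the fold was not significant.

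Both arms were listed in the quantification files for 21 of the 105 precursors, and in 4 of these both passed 100 counts. The hairpin of chr20_28040 is shown because its arms were nearest to each other in abundance, with 883 counts for chr20_28040-3p and 489 for chr20_28040-5p. It lay at chr20:10215567-10215628 on the minus strand of CHIR_1.0, with the 3p arm in capitals.
chr20_28040-3p: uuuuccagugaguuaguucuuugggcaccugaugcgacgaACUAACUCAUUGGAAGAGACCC
chr20_28040-3p had normalized counts (raw counts divided by the size factor of the library) of 73.3, 127, 85.4 and 98.9 in Control replicates 1 to 4, and of 58.6 to 105 with a median of 72.1 in the FD goats. For chr20_28040-5p the Control values were 27.6, 86.3, 68.6 and 36.5, and the FD values ran from 18.1 to 69.1 with a median of 40.4. Both arms overlapped between the diets. In the other 17 precursors with both arms listed, the lower arm had at most 31 counts.

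Some members were counted on many more reads than had led to their prediction. The prediction file gives the reads stacked on each arm, and for 50 of 108 members with such a value the quantified total was within 10% of it. For 17 members it was more than 3 times as high. The median ratio of quantified to predicted reads was 1, and the lowest was 0.40 (chr3_3327-3p, 1058 reads at prediction and 424 at quantification). chr8_12248-5p, a miR-2284-like sequence and the most abundant of all, was predicted from 7 reads and quantified with 26211. The same figures were 1324 and 12910 for chr4_5976-5p, 427 and 6325 for scaffold1201_36412-3p, 16 and 234 for chr22_29775-3p and 33 and 118 for scaffold986_36329-3p. In 18 members the reads at prediction were under 100, so that the count minimum was met only at quantification. bta-miR-2284j, at 1 edit from chr8_12248-5p, had 83 counts in all. It was the closest named miRNA, and only the closest was kept for each member. bta-miR-2284y, also within 2 edits of chr8_12248-5p, had 33491 counts. Whether reads of bta-miR-2284y were counted on chr8_12248-5p was not tested.

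**Figure D2:**
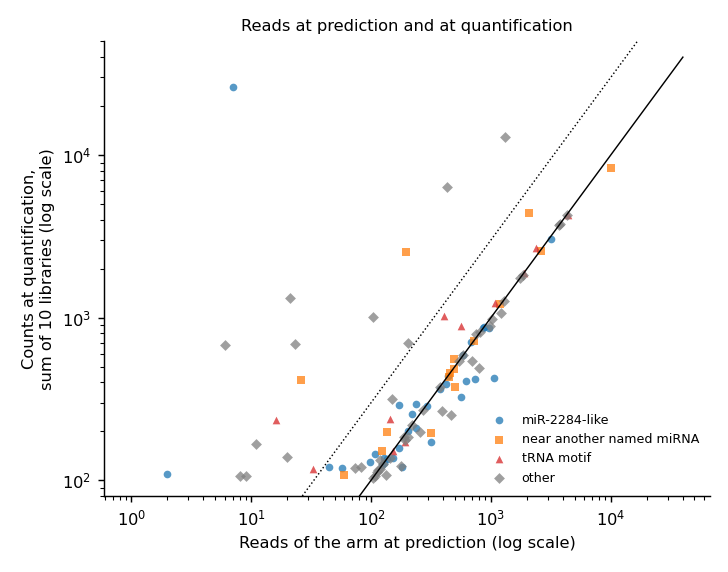
Counts at quantification summed over the 10 libraries (y axis, log scale) against the reads of the same arm at prediction (x axis, log scale) for the 108 members with both, by sequence group. The solid line marks equality and the dotted line 3 times as many, which 17 members exceeded, chr8_12248-5p (7 and 26211) farthest of all.

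Together the members made up a small part of each library. Among Control goats 0.203% ± 0.0382 (SD, n = 4) of all counts fell on members, and among FD goats the share was 0.182% ± 0.0123 (SD, n = 6). Control replicate 1 had the highest share of all libraries (0.254%) and Control replicate 4 the lowest (0.163%), while the FD goats ran from 0.166% to 0.202%, inside the Control range. High-scoring predictions had 0.123% ± 0.0159 (SD, n = 4) and, after food deprivation, 0.109% ± 0.0129 (SD, n = 6). As the counts had chosen the members, no test was made. All 109 were detected in 9 libraries and 108 in Control replicate 1.

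**Figure D3:**
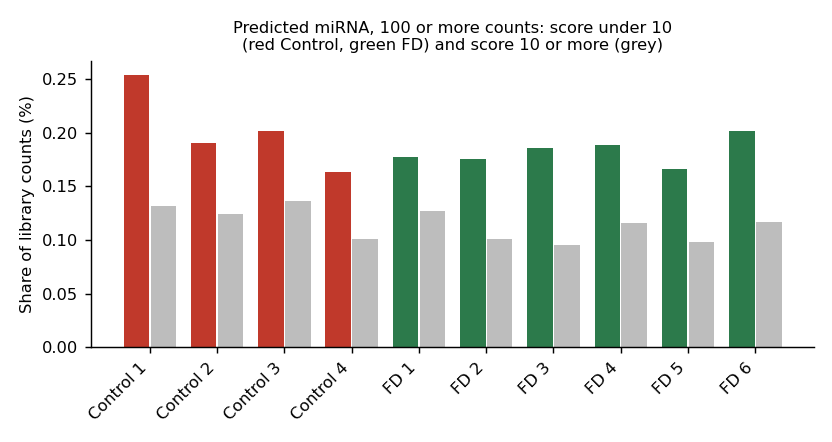
Share of library counts (percent, y axis) taken by the 109 members (red for Control, green for FD) and by the 73 high-scoring predictions (grey) in each library (x axis). The members' share was 0.254% in Control replicate 1 and 0.163% to 0.202% in the other libraries.

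Abundance was concentrated in few members. chr8_12248-5p held 20.6% of the members' counts, the 3 most abundant 37.4% and the 10 most abundant 60.9%. The mean normalized count had a median of 32.1 over members and ran from 9.72 to 2493, with 24 members above 100 and 41 under 20. Just past the count minimum were chr13_18889-5p (103 counts), chr2_1910-5p (106) and chr19_27287-5p (107). Just below it were chr27_34419-5p and chr22_30222-5p (97 each) and chr8_11819-5p (95). By group, the miR-2284-like sequences held 31.1% of the members' counts, those near another named miRNA 18.3%, the tRNA-like ones 10.2% and the others 40.5%.

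The question asked of the diets was which miRNA changed after food deprivation. Of the 109 members, 78 passed the filter (highest normalized count above 28) and were tested among 490 miRNA with edgeR's quasi-likelihood test. Neither a member nor any other miRNA passed a Benjamini-Hochberg adjusted p of 0.1 (0 of 490, 0%), the smallest adjusted p of a member being 0.195. At an unadjusted p under 0.05 stood 18 of 78 members (23.1%), against a background of 77 of 490 (15.7%). Of the 18, 14 were lower in FD, where the background was 8.16%, and 4 were higher, where it was 7.55%. FD over Control, the median log2 fold change was -0.18 over the 78 members, -0.02 over 57 tested high-scoring predictions and -0.00041 over all 490. With DESeq2, the tool of the study, 8 members had an adjusted p under 0.1 (0.0633 to 0.0941) against a background of 5.31% of all tested. They were chr22_29775-3p, scaffold986_36329-3p, chr12_17655-3p, chr19_26739-5p, chr27_34538-5p and chr23_30758-5p, all lower in FD, and chr9_13534-5p and chr12_18027-5p, both higher. Of these, chr22_29775-3p and scaffold986_36329-3p passed the filter only through Control libraries. With limma-voom none had, among members or all 490. There 14 of 78 members had an unadjusted p under 0.05, against a background of 60 of 490.

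A single library weighed on these counts. Without Control replicate 1, 8 of 76 tested members had an unadjusted p under 0.05, 6 of them lower, against 9.3% of all 484 then tested, and the members' median log2 fold change was -0.06. Of the 109 members, 31 (28.4%) had their highest normalized count in that library, against 16.1% of the 490 miRNA tested. It was the library with the highest count of 10 of the 11 tRNA-like members, of 4 of 34 miR-2284-like ones, of 3 of 16 near another named miRNA and of 14 of 48 others. The 31 members that were not tested had mean normalized counts of 9.72 to 17.8.

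**Figure D4:**
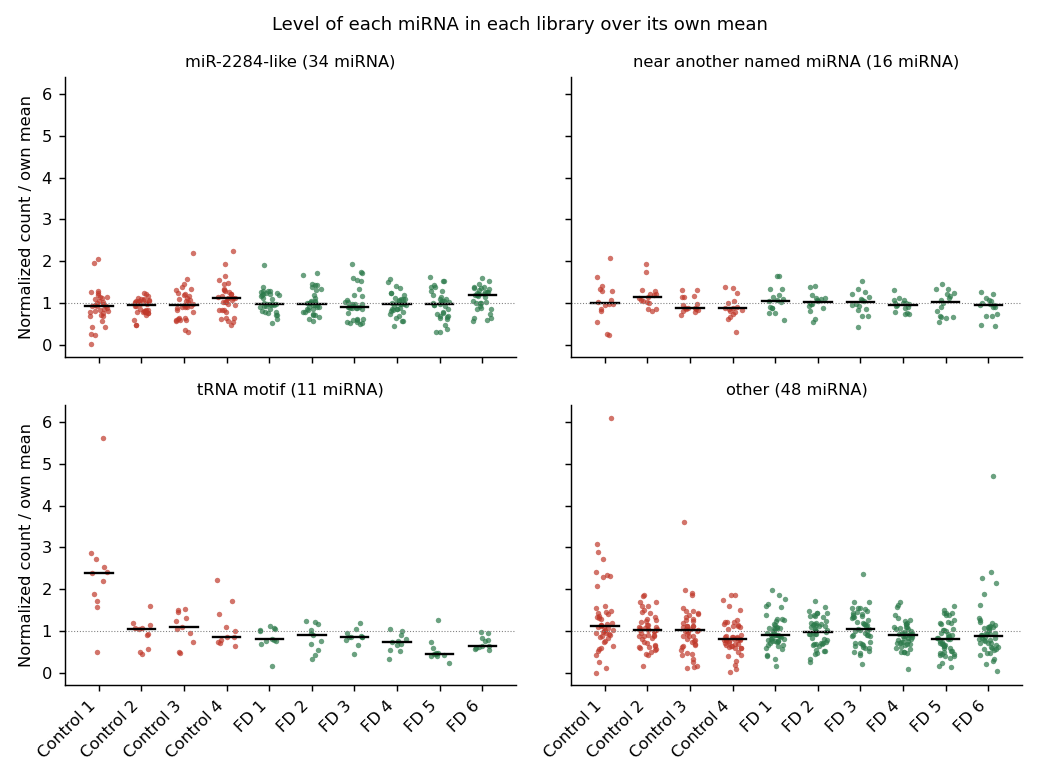
Normalized count of each member divided by its own mean over the 10 libraries (y axis), by library (x axis, red for Control and green for FD) in the 4 sequence groups. Points are members, bars the median and the dotted line is 1. In the tRNA-like group, 10 of 11 members were highest in Control replicate 1 and 1 in Control replicate 4.

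The tRNA-like group, set by its letters alone, had the lowest median log2 fold change of the 4 sequence groups. Its summed normalized count was 2878, 1607, 1586 and 1201 in Control replicates 1 to 4, and ran from 617 to 1346 with a median of 1079 in the FD goats. Control replicate 1 was above all other libraries, while Control replicate 4 lay inside the FD range. Of 10 tested members, 7 had an unadjusted p under 0.05, all 7 lower in FD, against 15.7% of all 490 in either direction and 8.16% lower, and the median log2 fold change was -0.86. Without Control replicate 1 these figures were 3 of 9, against 9.3% of all tested, and -0.48. Among the 7, chr22_29775-3p and scaffold986_36329-3p passed the filter only through Control libraries. The members and the letters were chosen with results of these libraries known, so the count describes these libraries only.

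chr12_17655-3p, which ends in CCA and was the most abundant of the group, had 764, 717, 646 and 318 normalized counts in Control replicates 1 to 4 and 209 to 457 (median 339) in FD goats. Only Control replicate 4 fell within the FD range. Its log2 fold change was -0.88 (SE 0.275, adjusted p = 0.195 with edgeR), and -0.76 without Control replicate 1. chr22_29775-3p, ending in the same GGCACCA, had 60.8, 25.5, 26.6 and 33.6 normalized counts in Control and 7.68 to 21.2 (median 17.3) in FD goats. The diets did not overlap, a pattern found lower in FD for 2 of 78 members and for 1.02% of all 490. The log2 fold change was -1.21 (SE 0.33, adjusted p = 0.195 with edgeR).

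chr23_30758-5p, with the hairpin shown above, had 224, 97.1, 142 and 68.2 normalized counts in Control and 37.7 to 95 (median 71) in FD goats. Control replicates 1 to 3 were above all FD goats, and Control replicate 4 was within their range. The log2 fold change was -0.97 (SE 0.307, adjusted p = 0.195 with edgeR), and -0.62 without Control replicate 1. scaffold986_36329-3p had the lowest log2 fold change of all tested members, -2.18 (SE 0.667, adjusted p = 0.195 with edgeR). That value rested on 1 library, since the Control values were 76, 5.89, 9.8 and 11.5 normalized counts and the FD values 2.13 to 7.88 (median 5.82). Without Control replicate 1 it no longer passed the filter.

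chr11_16730-3p and chr8_12894-3p, both with CCA at the end, were also highest in that library. chr11_16730-3p had 679, 322, 295 and 221 normalized counts in Control and 126 to 299.9 (median 228) in FD goats, with a log2 fold change of -0.83 that became -0.41 without Control replicate 1. For chr8_12894-3p the values were 366, 209, 239 and 192 against 92.7 to 205 (median 164), with -0.70 and -0.48. chr19_27451-5p went from -0.85 to -0.54. chr5_7010-5p, with 369 normalized counts in Control replicate 1 and 60.2 to 119 in the other Control libraries, went from -0.65 to 0.09. chr18_24690-5p differed from the rest of the group, with 30.7 normalized counts in Control replicate 4, 6.87 to 7 in the other Control libraries and 9.61 to 17.4 in FD goats.

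The miR-2284-like group overlapped between the diets. Its summed normalized count was 3503, 3837, 3709 and 4474 in Control replicates 1 to 4 and 3381 to 4533 (median 3561) in FD goats. Of 21 tested members, 4 (19%) had an unadjusted p under 0.05, 1 higher and 3 lower, near the 15.7% of all 490, and the median log2 fold change was 0.01. chr8_12248-5p had 2318, 2647, 2373 and 2776 normalized counts in Control and 2230 to 3289 (median 2306) in FD goats. Its log2 fold change was -0.05 (95% interval -0.33 to 0.23), the diets overlapping. chr4_5744-5p had -0.16 (95% interval -0.49 to 0.17).

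Members of this family went in both directions. chr12_18027-5p had 60.8, 65.7, 46.2 and 50.9 normalized counts in Control and 56.6 to 139 (median 99.8) in FD goats, where 5 of 6 were above every Control. This gave a log2 fold change of 0.78 (SE 0.246, adjusted p = 0.195 with edgeR). Its other arm, chr12_18027-3p, had 0.10 (SE 0.384). chr27_34538-5p had 325, 317, 332 and 672 normalized counts in Control and 147 to 361 (median 190) in FD goats, where 5 of 6 were below every Control. This gave a log2 fold change of -0.89 (SE 0.293, adjusted p = 0.195 with edgeR), and -0.60 without Control replicate 4, the library with 672. chr27_34538-5p lay at 1 edit from the predicted miRNA chr3_4386-5p, and chr12_18027-5p at 1 edit from chr17_23622-5p. Their reads cannot be told apart with certainty from those of these near copies. Some family members had nearly equal counts. chr3_3327-3p, chr9_13788-3p and chr18_24334-3p, all near bta-miR-2285f, had 36 counts each in Control replicate 1 and totals of 424, 417 and 406.

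Of the 16 members near another named miRNA, none of the 14 tested had an unadjusted p under 0.05 with edgeR (1 with limma-voom). The background was 15.7% of all 490 with edgeR and 60 of 490 with limma-voom. Their counts ranged from a very small to a large part of those of the named miRNA. Over all 30 near pairs, 12 members had under 1% of the counts of their neighbour and 19 under 10%. chr21_28588-5p had 1.77% of the counts of miR-378-3p, with 1.60% to 2.00% over the 10 libraries. Its log2 fold change was -0.32 (SE 0.226), beside -0.32 (SE 0.19) for miR-378-3p. chr23_31549-5p had 0.00898% of the counts of miR-143-3p, the most abundant neighbour with 8013938 counts, and from 0.00719% to 0.0111% over libraries. chr4_5826-5p had 0.0781% of miR-27b-3p. These percentages moved by a factor of 1.25, 1.54 and 2.27 from the lowest to the highest library. miR-27b-3p and its near copy had log2 fold changes of 0.21 (SE 0.133) and 0.29 (SE 0.234).

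Other pairs were less even. chr18_25014-3p had from 0.273% to 1.42% of the counts of miR-145-5p, 5.2 times more in the highest than in the lowest library, and chr12_17501-3p from 0.0416% to 0.271%. chr17_23903-5p and chr25_32792-5p had 37.3% and 21.3% of the counts of ssc-miR-4334-3p, and C68860199_39120-3p had 61.4% of those of efu-miR-1842. chr17_23903-5p had 427, 359, 354 and 362 normalized counts in Control and 368 to 552 (median 435) in FD goats, with a log2 fold change of 0.23 (SE 0.16), beside -0.08 (SE 0.131) for ssc-miR-4334-3p. The difference between the 2 was not tested.

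Among the 48 remaining members, 33 were tested and 7 (21.2%) had an unadjusted p under 0.05, 3 higher and 4 lower, against 15.7% of all 490 (7.55% higher and 8.16% lower). chr9_13534-5p, with the letters TGATGA, had 88.5, 88.3, 81.2 and 73 normalized counts in Control and 103 to 126 (median 113) in FD goats. Every FD goat was above every Control, which was found for 1 of 78 members and for 1.22% of all 490. Its log2 fold change was 0.44 (SE 0.139, adjusted p = 0.195 with edgeR). The other arm, chr9_13534-3p, was not tested and had 26.3, 21.6, 15.4 and 12.5 normalized counts in Control and 8.24 to 22.4 in FD goats.

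chr19_26739-5p had 480, 597, 394 and 562 normalized counts in Control and 171 to 417 (median 287) in FD goats. FD goats were below every Control in 4 of 6 cases, and Control replicate 1 was not the highest. Its log2 fold change was -0.83 (SE 0.273, adjusted p = 0.195 with edgeR), and -0.87 without that library. chrX_39298-5p, from a precursor with 81 star reads, had 178, 215, 163 and 291 normalized counts in Control and 193 to 816 (median 430) in FD goats. The log2 fold change was 1.02 (SE 0.388, adjusted p = 0.269 with edgeR), and the diets overlapped.

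**Figure D5:**
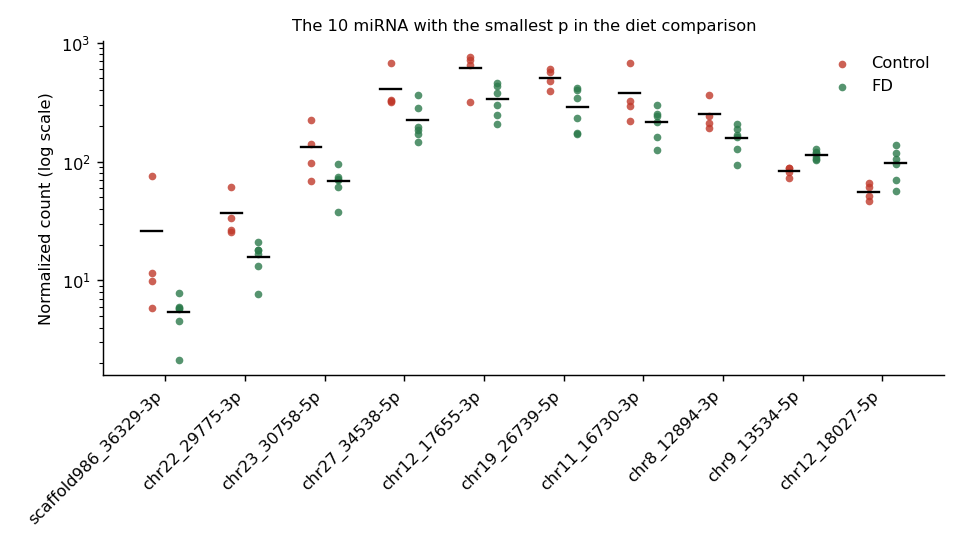
Normalized counts (y axis, log scale) of the 10 members with the smallest p in the diet comparison (x axis) in the 4 Control (red) and 6 FD (green) goats, with bars at the group means. The diets do not overlap in chr22_29775-3p and chr9_13534-5p, and 1 Control library stands above the others in scaffold986_36329-3p (76 against 5.89 to 11.5).

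The most abundant of the remaining members varied widely between goats of the same diet. chr4_5976-5p had 1729, 873, 1251 and 722 normalized counts in Control and 727 to 2332 (median 907) in FD goats. The log2 fold change was 0.16 (95% interval -0.58 to 0.90). scaffold1201_36412-3p had 850, 307, 702 and 701 in Control and 275 to 983 in FD goats, and chr17_23603-3p 708, 242, 595 and 397 in Control and 105 to 601 in FD goats. The pair, with overlapping 3' ends, was lowest among Control goats in the same library, Control replicate 2. Their log2 fold changes were -0.06 (SE 0.34) and -0.25 (SE 0.41).

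The largest log2 fold changes outside the tRNA-like group belonged to members with uneven libraries. C62631060_37562-5p had 1.81 (SE 0.855, adjusted p = 0.323 with edgeR), on 0.96 to 11.8 normalized counts in Control and 5.33 to 53.4 (median 8.39) in FD goats. Without Control replicate 2 it had 3.17, and without FD replicate 6, the library with 53.4, it no longer passed the filter. chr16_22066-5p had 1.16 (SE 0.516, adjusted p = 0.306 with edgeR), with 13.8, 65.7, 16.8 and 22.1 in Control and 14.9 to 98.2 (median 79.1) in FD goats, and 1.90 without Control replicate 2. chrX_39659-3p had -1.61 (SE 1.15, adjusted p = 0.461 with edgeR), with 394 in Control replicate 1, 0.96 to 26.5 in the other Control libraries and 1.75 to 111 in FD goats, and 1.44 without Control replicate 1 and -2.42 without FD replicate 2. Within diets the members varied more than the bulk of miRNA. The median coefficient of variation of the 78 tested was 31.4% among Control and 29.6% among FD goats, against 22.4% and 23.3% over all 490, sets that were not matched in level.

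The tissue label was read against markers of its cell types. All 6 miRNA of mammary epithelium were found, with a summed level of 1443000 to 1768000 normalized counts in Control and 795600 to 1619000 in FD goats. Of erythroid markers 3 of 4 were found, with 3750 to 6061 and 5961 to 8756. Of myeloid markers 2 of 4 were found, with sums of 168 to 423 and 346 to 925. Markers were looked up by name only, so a marker not found here can still be present. Both endothelial markers together summed to 117500 to 145000 in Control and 136500 to 197700 in FD goats. The 4 stromal ones summed to 686800 to 924200 and 576400 to 1131000. The lowest single marker had a mean of 20380 normalized counts among the endothelial and 295.9 among the stromal ones, well below these sums. The part of shifts in the marker sums in the members' values was not tested.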

How the data were processed

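Small RNA of 10 mammary glands, 4 Control and 6 FD, was sequenced by the authors on TruSeq libraries (CASAVA 1.8.2 per the labels). Per the study's methods, adapters were removed with Cutadapt (version not given in the sources used here), reads of 17 to 28 nt were kept and mapped to the goat genome CHIR_1.0, precursors were predicted with miRDeep2, and reads were counted on miRBase and predicted precursors. The deposited files hold raw read counts per mature miRNA, and a second column of normalised values per library (10 columns), whose scale is not stated, was not used. The deposited prediction file gives the miRDeep2 score and the sequences of each precursor, pooled over libraries. PCR reads carry no molecular identifiers, and reads of near copies can be counted more than once or assigned to either.

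Counts were tested on all miRNA with the highest normalized count (DESeq2 median of ratios) above 28, 490 in all, with edgeR 4.0.16 (TMM, quasi-likelihood, two-sided, Benjamini-Hochberg at 0.1) in R 4.3.3, on the whole table and with no covariate. DESeq2 1.42.0 and limma 3.58.1 (voom) were alternatives, beside other scalings, filters and member rules and leaving out each library. Code was tested on simulated data. Sequences were compared with edlib 1.3.9.post1 over the shorter sequence. Library totals were 4495512 to 9842009 counts. No 2 libraries of a group held the same values, and each library was 1 goat, so that p-values measure the spread between goats. No replicate number, batch or date in the labels links Control and FD goats.

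Named members were the 10 most abundant, the 10 with the smallest p, those the study names, the 3 highest and 3 lowest log2 fold changes, those next to the score and count limits, and up to 4 per group of letters. Members near a named miRNA, other arms of named precursors and further examples were added after their values were seen. The members, lists and letters were chosen with earlier results of these data known, and the members named by the study were chosen by it on these libraries. Replicate numbers within a diet follow the order of the samples and name a library only.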

Additional observations from a re-analysis of the deposited data

Results flagged for a closer look

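In groups of 4 or 6 goats, a value was set apart when its gap to the nearest other exceeded Dixon's 95% critical share of the range. This held for 11 of 58 groups of values examined (19%). The usual chance rate of about 1 in 20 is no fair comparison here. The members examined included those named for extreme log2 fold changes, which single libraries can create, and group sums repeat their members. Among Control goats, replicate 1 was set apart in chr17_23903-5p (427 normalized counts, others 354 to 362), in chrX_39659-3p (394, others 0.96 to 26.5) and in scaffold986_36329-3p (76, others 5.89 to 11.5). Control replicate 4 was set apart in chr27_34538-5p (672, others 317 to 332) and chr18_24690-5p (30.7, others 6.87 to 7). Control replicate 2 was set apart in chr16_22066-5p (65.7, others 13.8 to 22.1) and C62631060_37562-5p (11.8, others 0.96 to 2.8).

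Among FD goats, replicate 6 was set apart in chr8_12248-5p (3289 normalized counts, others 2230 to 2459), in C62631060_37562-5p (53.4, others 5.33 to 13.4) and in the summed count of the miR-2284-like group (4533, others 3381 to 3655), of which chr8_12248-5p is the largest part. FD replicate 4 was set apart in the summed count of the members near another named miRNA (1934, others 2204 or more). The causes were not tested.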

How the results depend on the processing

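No member passed the adjusted threshold with edgeR in any scaling or with any library left out (0 of those tested each time). With DESeq2 8 members passed (background 5.31% of all 490), and 1, scaffold986_36329-3p, with edgeR and no filter on low counts. The number of members with an unadjusted p under 0.05, 18, became 31 with no filter, 11 with a highest normalized count above 100, 6 with a score under 1 and 10 without members holding a tRNA motif, and ran from 8 to 20 with each library left out in turn. The lowest, 8, was without Control replicate 1. The share over all miRNA is given only for the main fit (15.7%) and for that one (9.3%). Counts from the other fits therefore stand without a background, and the number tested differed between fits. The number of members was 166 at a count minimum of 50, 69 at 200 and 28 with a score under 1. Measured against the counts of predicted miRNA alone, their mean share was 57.4% in Control and 57.9% in FD goats.

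The median log2 fold change of members ran from -0.26 to -0.06 with each library left out. It was -0.24 with upper-quartile scaling, -0.34 without members near a named miRNA and -0.08 without those with a tRNA motif. The last pair of settings, and leaving out members quantified at over 3 times their predicted reads, was chosen after seeing the data. Of 24 named members, 5 changed sign in a fit with a library left out. Their log2 fold changes ran from -0.11 to 0.41 for chr4_5976-5p, -0.31 to 0.090 for scaffold1201_36412-3p, -0.91 to 0.088 for chr5_7010-5p, -2.42 to 1.44 for chrX_39659-3p and -0.11 to 0.20 for chr18_24690-5p. The 31 untested members had mean normalized counts of 9.72 to 17.8, where counting error is larger than for the abundant members.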
